A study of Xenopus laevis with 96 samples.

Results

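The genes described here belong to the nuclear part of the mitochondrial respiratory chain in Xenopus laevis, and do not cover all of it. They were chosen by symbol: every gene of the deposited expression table whose symbol starts with ndufa, ndufb, ndufc, ndufs, ndufv, sdha to sdhd, uqcr, cox4 to cox8, cyc1, cycs or atp5 is a member. The rule found 91 genes among the 31430 genes of the count table, of which 16322 are in the deposited expression table. Genes outside the deposited expression table could not be members, but the shares of all genes given below include those of them that were tested. The members carry 66 distinct symbols, and 25 of these are present as both homeologs, the L and S copies that the allotetraploid X. laevis genome inherited from its parent species. By subunit, 36 members belong to complex I, 7 to complex II, 11 to complex III, 15 to complex IV and 16 to ATP synthase, while 1 encodes cytochrome c and 5 encode assembly factors.

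The respiratory chain passes electrons from NADH through complex I, and from succinate through complex II, to ubiquinone, then through complex III and cytochrome c to complex IV, which reduces oxygen. The proton gradient that complexes I, III and IV build drives ATP synthase. Most subunits are encoded in the nucleus, some catalytic ones in the mitochondrial DNA, and the Xenopus egg supplies the embryo with a large maternal store of both mitochondria and mRNA. The mitochondrially encoded subunits were not analysed here.

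The embryos were whole and wild-type. Eggs of 6 females gave 6 clutches, called A to F, and each clutch was divided over 4 groups: controls, embryos given 10 nM all-trans retinoic acid (RA), embryos given 50 μM DEAB, an inhibitor of the retinaldehyde dehydrogenases that make RA, and embryos given 0.5% ethanol, each for 2 h. Embryos were collected at the end of treatment (t = 0 h, st. 10.25, early gastrula) and 1.5, 3 and 4.5 h after the wash, with 5 to 10 embryos pooled per library and 1 library per clutch, group and time point, 96 in all. RA and DEAB were dissolved in DMSO according to the study's methods. Whether the controls received DMSO or another vehicle is not given in the sources used here, so in the comparisons of RA and DEAB with control the agent and its solvent cannot be told apart. The ethanol group has no DMSO named for it, and the labels state that it was left out of the submitters' further steps. At t = 1.5 h the labels give st. 11.5 for clutch A and st. 11 for the others. At t = 3 h they give st. 11.5 for clutches B and C and st. 12 for the others. At t = 4.5 h they give st. 12.5 for clutches A, D, E and F and st. 12 for clutches B and C. Time after the wash and stage thus did not run together in all clutches. The study used only clutches in which RA raised and DEAB lowered RA target genes, cyp26a1.L and hoxb4.S among them, by qPCR.

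Libraries held 5528562 to 15869722 gene counts (median 11691899), and the members took 0.16% to 0.27% of them. Of 18 germ layer marker symbols 15 were found, as 23 genes, and all 23 had counts in every one of the 24 control libraries. At t = 0 h cyp26a1.L was higher with RA by 2.09 on the log2 scale (adjusted p = 1.8e-07) and lower with DEAB (-0.65, adjusted p = 0.044, both by edgeR's quasi-likelihood test, n = 6 clutches), which is not independent of the qPCR selection. Levels are given as CPM, counts scaled to a common library size after TMM normalization. They are a share of each library and are not divided by transcript length, so they compare samples and not genes. In whole embryos, fewer cells that express a gene and less RNA per cell cannot be told apart.

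Member levels spanned a wide range of counts. The most counted were atp5b.S and atp5b.L, which encode the catalytic beta subunit of ATP synthase, with means over all 96 libraries of 273 ± 57 and 192 ± 49.4 CPM (SD), followed by uqcrfs1.L, the Rieske iron-sulphur protein of complex III, with 106 ± 22.9 CPM. The model of atp5b.S overlaps others in RefSeq, so its counts may include reads of a neighbour. The least counted were the complex I genes ndufs6.L (1.72 ± 1.02 CPM), ndufa3.S (1.84 ± 0.614 CPM) and ndufb3.L (1.90 ± 0.659 CPM). In the library where it was lowest, ndufs6.L rested on 1 count, so single values of these 3 genes carry large counting errors. The same limit holds for low libraries of other members. Among them, ndufa1.L and cox5b.2.L, named below for large changes, each had 3 counts in their lowest library.

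The first comparison asks how the chain's mRNAs moved through gastrulation in control embryos. Between t = 0 and t = 4.5 h the members did not move as a block: 28 rose and 41 fell, and 22 did not pass the test. Of all genes tested 39.6% rose and 43.2% fell. In complex I 16 of 36 members rose and 10 fell, and in complex IV 7 of 15 rose and 3 fell. In ATP synthase 1 of 16 rose and 12 fell. In complex III 2 of 11 rose and 8 fell, and in complex II 1 of 7 rose and 4 fell. The changes reached at least 2-fold for 12 members that rose and 12 that fell (13.2% each), against 24.4% and 22.9% of all genes tested. The median log2 fold change was 0.06 for complex I, 0.30 for complex IV, -0.58 for ATP synthase, -0.59 for complex III and -0.69 for complex II, against -0.17 over all members and -0.078 over all genes tested. Without clutch C the median was -0.093 over all members and -0.051 over all genes tested. With DESeq2 the medians were -0.096 and 0.0017, and with its size factors in edgeR -0.099 and -0.0029. On the deposited log2 values they were -0.14 and -0.12. These are counts and medians, and no difference between complexes was tested.

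The test was edgeR's quasi-likelihood test with clutch as a blocking term and p-values adjusted by Benjamini-Hochberg over all genes at 0.05, with 6 clutches per time point. It called 69 of 91 members (75.8%), against 16820 of all 20295 genes tested (82.9%), of which 39.6% rose and 43.2% fell. The difference between these 2 shares was not tested, and the count of members depended on the processing. On the deposited log2 values 30 members rose and 45 fell, and with DESeq2 32 rose and 40 fell. Of the 69 called members, 55 moved one way in every clutch (79.7%, against 84.7% of all called genes). The 6 libraries at t = 4.5 h lay wholly above the 6 libraries at t = 0 h for 11 members, and wholly below them for 18, while this was so for 22.6% and 20.7% of all genes.

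**Figure D1:**
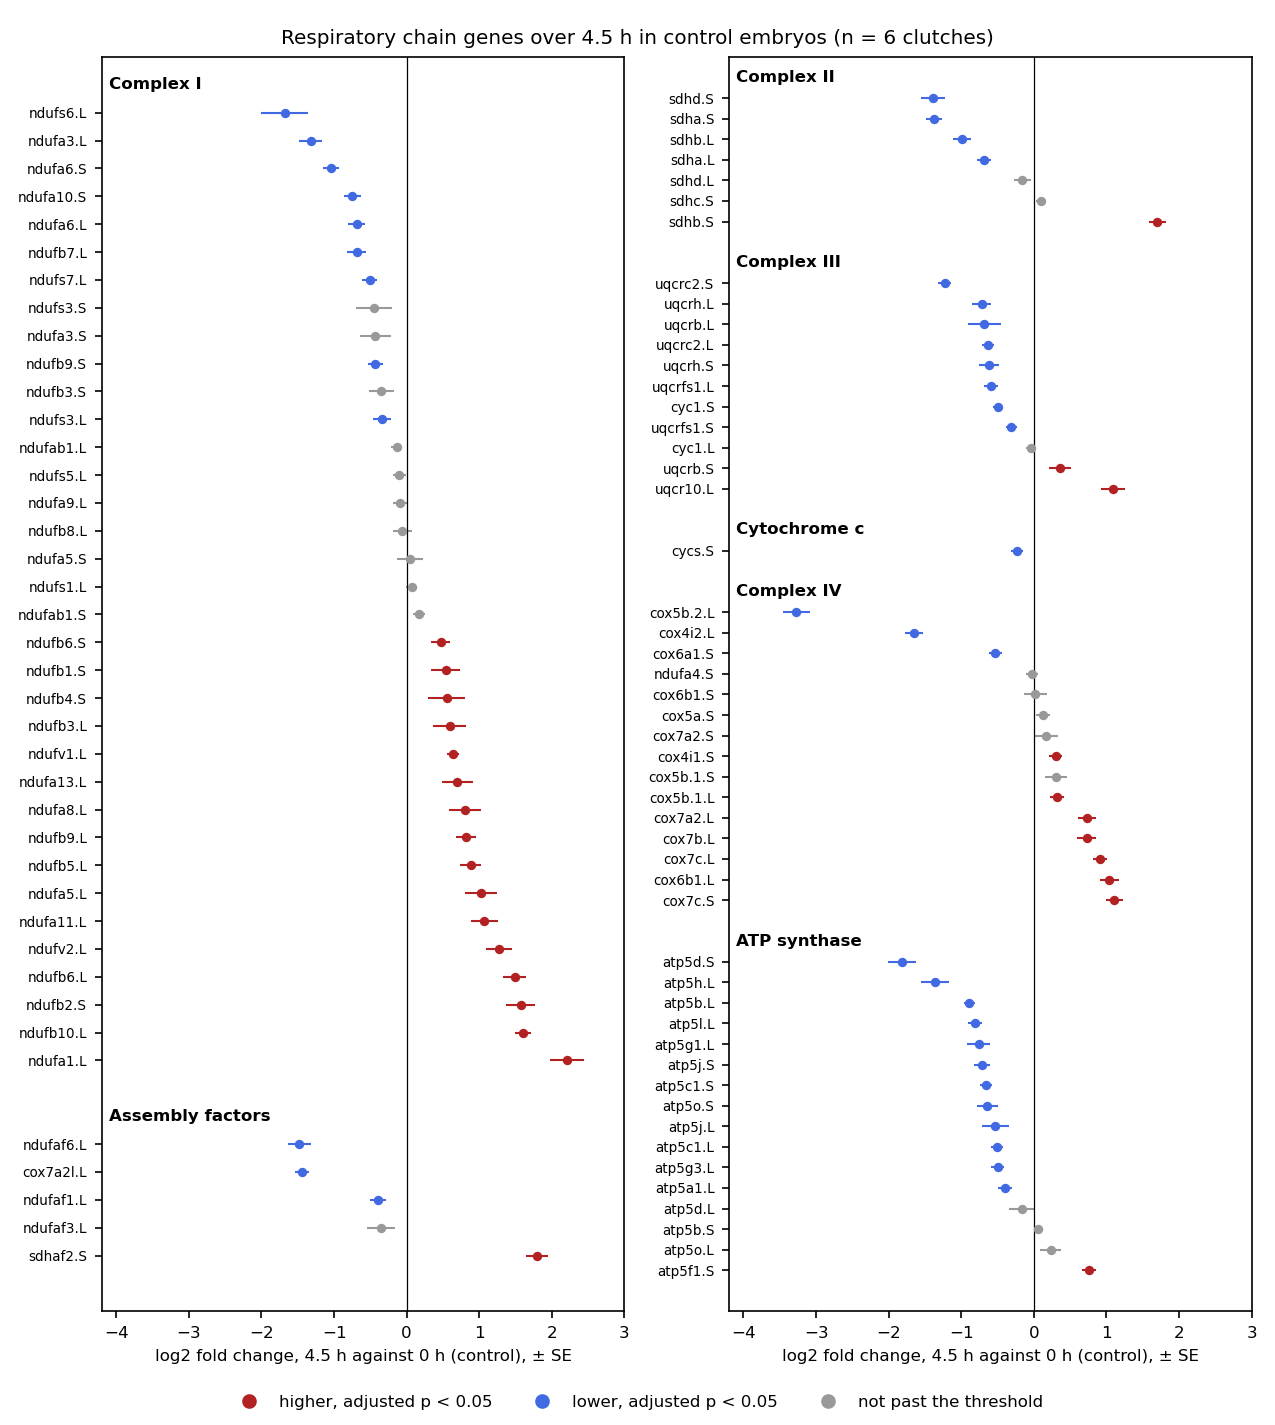
Log2 fold change of the members, 1 of them not shown, between t = 0 and t = 4.5 h in control embryos (x axis, log2 scale) with its standard error, grouped by complex. Red points rose and blue points fell at an adjusted p under 0.05, and grey points did not pass. In ATP synthase 12 of 16 points are blue, while complex I holds 16 red points. Of all genes tested 43.2% fell and 39.6% rose.

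In complex I the genes of core subunits, many of which carry flavin or iron-sulphur centres or bind ubiquinone, were split. ndufv2.L rose by 1.27 ± 0.18 (SE, log2 scale) and ndufv1.L, whose product binds NADH, by 0.64 ± 0.082. ndufs7.L and ndufs3.L fell by 0.51 and 0.34 on the log2 scale. ndufs1.L (0.07, adjusted p = 0.40) and ndufs3.S (-0.45, adjusted p = 0.097) did not pass. The core genes thus moved in both directions. Both ndufs3 models overlap a kbtbd4 model in RefSeq, so their counts may include reads of a neighbour.

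The largest rises in complex I were in supernumerary subunits, accessory proteins around the core. ndufa1.L (Xelaev18038889m) had between 0.649 and 1.07 CPM at t = 0 h (median 0.961) and between 2.02 and 5.58 CPM at t = 4.5 h (median 4.68). The 2 sets of libraries did not overlap, and the log2 fold change was 2.21 ± 0.23 (SE, adjusted p = 1.1e-08). ndufb10.L went from 5.34 to 12.3 CPM (median 7.22) to 18.4 to 32.8 CPM (median 22.2), again without overlap, and rose by 1.60 ± 0.11 (adjusted p = 2.2e-11). RefSeq lists the name ndufb10.L under the S copy.

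The largest falls were also in supernumerary subunits. ndufs6.L fell from 1.95 to 3.94 CPM (median 2.25) to 0.213 to 1.11 CPM (median 0.774), by 1.68 ± 0.32 on the log2 scale (adjusted p = 4.9e-05). ndufa3.L fell from 3.95 to 5.35 CPM (median 4.36) to 1.35 to 2.72 CPM (median 1.61), by 1.32 ± 0.16 (adjusted p = 1.4e-07). Neither gene's libraries overlapped between the time points. Of all 29 supernumerary members, 14 rose, 7 fell and 8 did not pass, while 39.6% of all genes tested rose and 43.2% fell.

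In complex II, the succinate dehydrogenase that also belongs to the citric acid cycle, the iron-sulphur subunit sdhb showed the widest split between homeologs of any pair. sdhb.S (Xelaev18037955m) rose from 17.9 to 26.7 CPM (median 24.7) at t = 0 h to 54.0 to 98.5 CPM (median 81.8) at t = 4.5 h, by 1.70 ± 0.12 (SE, log2 scale, adjusted p = 3.3e-11). sdhb.L (Xelaev18036369m) fell from 6.91 to 11.8 CPM (median 8.72) to 3.20 to 6.26 CPM (median 4.55), by 0.99 ± 0.13 on the log2 scale (adjusted p = 5.6e-07). All 6 clutches showed both directions. Apart from sdhb.S every called member of the complex fell. The flavoprotein subunit sdha fell in both copies (sdha.L -0.69, sdha.S -1.38), and the membrane anchor sdhd.S fell by 1.39 ± 0.16.

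sdhd.L was the only member with called steps in opposite directions. Its mean went from 9.88 ± 1.48 CPM at t = 0 h to 7.76 ± 0.526 at 1.5 h and 6.74 ± 1.2 at 3 h, and back to 8.83 ± 1 at 4.5 h (SD, n = 6 clutches). The change over the whole interval did not pass (-0.16, adjusted p = 0.22). The remaining anchor, sdhc.S, did not pass either (0.10, adjusted p = 0.21). The models of sdha.S and sdhd.S overlap another gene model in RefSeq, so their counts may include reads of a neighbour.

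In complex III the core protein uqcrc2.S fell from 14.8 to 31.9 CPM (median 25) to 6.5 to 14.7 CPM (median 10.3), by 1.23 ± 0.088 (SE, log2 scale, adjusted p = 2.9e-11). The hinge protein gene uqcrh.L fell by 0.72 ± 0.13, and both Rieske homeologs fell (uqcrfs1.L -0.59, uqcrfs1.S -0.31). In contrast uqcr10.L, a small subunit, rose from 5.06 to 11.5 CPM (median 7.39) to 12.3 to 23.9 CPM (median 15.1), by 1.09 ± 0.16 (adjusted p = 1.9e-06). RefSeq lists the name uqcr10.L under the S copy. uqcrb.S, a ubiquinone binding protein, was called at 0.36 ± 0.15 (adjusted p = 0.035), a call that was lost without clutch A, B, E or F and without the low count filter. The single cytochrome c gene, cycs.S, had 77.2 to 119 CPM (median 102) at t = 0 h and 58.6 to 109 CPM (median 85.9) at t = 4.5 h. Its libraries overlapped, and its change of -0.23 ± 0.08 (adjusted p = 0.01) was no longer called without clutch D or E or with DESeq2's size factors.

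Complex IV held the largest change of any member. cox5b.2.L (Xelaev18034774m), one of the genes for subunit 5B, fell from 7.75 to 18.4 CPM (median 12.9) to 0.639 to 2.72 CPM (median 1.21), without overlap and in each clutch, by 3.27 ± 0.19 on the log2 scale (adjusted p = 1.7e-12). The other gene for the same subunit, cox5b.1, did not share this: cox5b.1.L rose from 11.6 to 18.1 CPM (median 13.7) to 14.3 to 21.3 CPM (median 16.9), by 0.32 ± 0.099 (adjusted p = 0.0055), and cox5b.1.S had a log2 fold change of 0.30 (adjusted p = 0.07).

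Subunit 4 also has 2 forms. In mammals cox4i1 is the form found in most tissues, and cox4i2 is found mainly in lung and under low oxygen. In these embryos cox4i2.L fell from 51.5 to 84.7 CPM (median 76.6) to 11.8 to 39.9 CPM (median 21.7), by 1.65 ± 0.12 (SE, log2 scale, adjusted p = 6.1e-11), while cox4i1.S went from 9.02 to 13.1 CPM (median 11.8) to 11.4 to 16.3 CPM (median 13.6), a rise of 0.30 ± 0.093 (adjusted p = 0.0057). The libraries of the falling form did not overlap between the 2 time points, and those of the rising form did. Both models overlap another gene model in RefSeq, emc8.S for cox4i1.S.

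**Figure D2:**
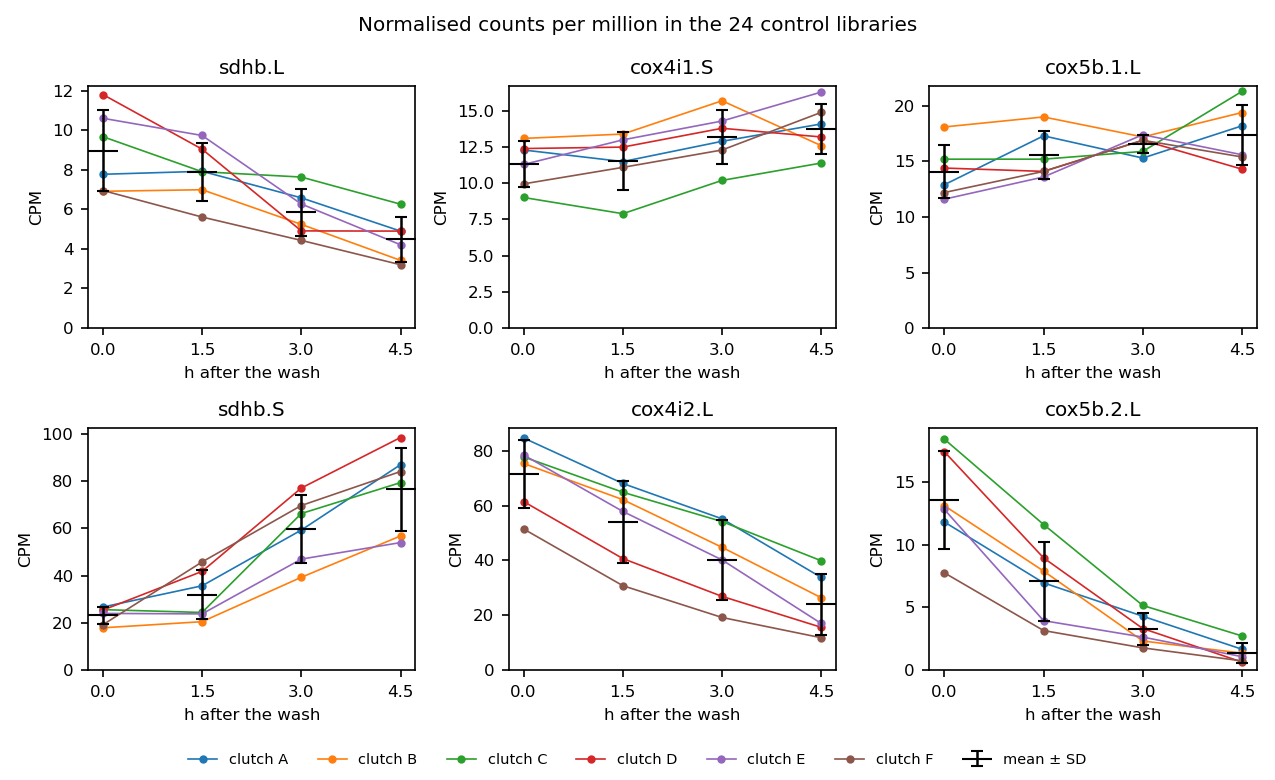
CPM (y axis, linear from 0) against hours after the wash (x axis) in the 24 control libraries for sdhb.L and sdhb.S, for cox4i1.S and cox4i2.L, and for cox5b.1.L and cox5b.2.L, with a coloured line per clutch and the mean ± SD in black. The means of sdhb.S and sdhb.L part from 23.1 and 8.94 CPM to 76.6 and 4.48 CPM, and cox4i2.L and cox5b.2.L decline in all 6 clutches.

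Among the other isoforms of complex IV, cox6a1.S fell by 0.53 ± 0.09 on the log2 scale, cox6b1.L rose by 1.04 ± 0.13 and cox7a2.L by 0.73 ± 0.12. Their S copies gave 0.02 for cox6b1.S (adjusted p = 1) and 0.17 for cox7a2.S (adjusted p = 0.30). cox7c.S rose by 1.11 ± 0.12 and cox7c.L by 0.91 ± 0.091, although both models overlap others. ndufa4.S, named for complex I but a subunit of complex IV, did not pass (-0.02, adjusted p = 0.79). The isoforms cox6a2, cox7a1, cox6b2, cox8a, cox8c, ndufa4l2 and atp5g2 are not among the members and were not analysed here.

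In ATP synthase genes of the catalytic head, the rotor and the peripheral stalk were among those that fell. The delta subunit gene atp5d.S fell from 4.11 to 19.4 CPM (median 10.6) to 1.86 to 5.11 CPM (median 3.10), by 1.82 ± 0.19 (SE, log2 scale, adjusted p = 1.3e-08). The 2 sets of libraries overlapped, but all 6 clutches fell. atp5d.S was not found in RefSeq, so its overlap with other gene models was not checked. atp5h.L, a subunit of the peripheral stalk, fell from 4.34 to 10.4 CPM (median 7.52) to 1.83 to 4.24 CPM (median 2.59), by 1.36 ± 0.19 (adjusted p = 1.1e-06). The 2 subunit c genes, which form the rotor ring, fell as well: atp5g1.L by 0.76 ± 0.16 and atp5g3.L by 0.50 ± 0.085. RefSeq lists the name atp5g3.L under an S copy. Of the head subunits, atp5a1.L fell by 0.40 ± 0.097 and atp5b.L by 0.89 ± 0.074, whereas atp5b.S did not pass (0.06, adjusted p = 0.36). atp5d.L (-0.17, adjusted p = 0.35) and atp5o.L of the peripheral stalk (0.23, adjusted p = 0.14) did not pass either.

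atp5f1.S, subunit b of the peripheral stalk, was the only ATP synthase member called higher by edgeR with TMM. It rose from 11.2 to 15 CPM (median 14) to 16.1 to 28.1 CPM (median 23.6), by 0.76 ± 0.10 (adjusted p = 5.2e-07), with no overlap. With DESeq2, and with its size factors in edgeR, atp5b.S was called higher as well, while on the deposited log2 values its direction reversed. The summed CPM of the 16 ATP synthase genes went from 839 ± 110 at t = 0 h to 644 ± 50.6 at t = 4.5 h, and that of complex III from 462 ± 42.1 to 349 ± 29.5 (SD, n = 6 clutches). Such sums lean on the most counted genes. The atp5b pair alone went from 522 to 415 CPM, and the uqcrfs1 pair of complex III from 250 to 180 CPM. The mean sums of complex I (374 ± 76.1 and 396 ± 64.0), complex II (165 ± 11.7 and 163 ± 16.9) and complex IV (256 ± 36.1 and 246 ± 15.2) differed less. These SDs describe levels between clutches and not changes within a clutch. Changes of the sums were not tested. In complex II the sum held the rise of sdhb.S and the fall of 4 other genes.

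Of the assembly factors, sdhaf2.S, which attaches the flavin to sdha, rose from 2.59 ± 0.652 CPM (SD, n = 6 clutches, highest 3.61) to 8.89 ± 2.03 CPM (lowest 7.04), by 1.79 ± 0.15 (adjusted p = 4.4e-10), while both sdha copies fell. cox7a2l.L, a supercomplex factor related to subunit 7A, fell by 1.44 ± 0.10 and the complex I assembly factor ndufaf6.L by 1.48 ± 0.16. ndufaf1.L fell by 0.40 ± 0.11, and ndufaf3.L did not pass (-0.35, adjusted p = 0.10). The models of ndufaf6.L and ndufaf3.L each overlap another gene model in RefSeq, so their counts may include reads of a neighbour.

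The course over the 4 time points ran in the same direction for most members. At t = 1.5 h 11 members were above t = 0 h and 23 below (37.4% of members called). Of all genes 48.3% were called, 23.8% above and 24.5% below. At t = 3 h 22 members were above and 43 below (71.4%), against 74.6% of all genes, 35.1% above and 39.5% below. From one time point to the next, 31 members were called between 1.5 and 3 h (34.1%, against 50.1% of all genes) and 32 between 3 and 4.5 h (35.2%, against 46.9%). The mean CPM rose at each step for 22 members and fell at each step for 38. The shares of all genes with such courses, or with called steps in opposite directions as in sdhd.L, are not given here. These courses are thus not shown to be particular to the members. Of the 69 members called at t = 4.5 h, 59 were called in the same direction at t = 3 h (85.5%) and 31 at t = 1.5 h (44.9%), against 85.3% and 54.4% of all genes called at t = 4.5 h. The largest changes at the first step were sdhaf2.S, up by 1.12 ± 0.15, and cox5b.2.L, lower by 1.01 on the log2 scale. The count at t = 1.5 h was 21 without clutch E and 20 without clutch F, against 34 with all clutches, and that between 3 and 4.5 h was 18 without clutch E.

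The second comparison was between homeologs, which can differ in regulation although they encode nearly the same protein. For each pair the log2 ratio of L to S was computed in every control library and its change between t = 0 and t = 4.5 h was tested with limma. The ratio changed in 19 of the 25 pairs (76%), against 1970 of all 2669 pairs (73.8%), a share near that of all pairs. L gained on S in 13 pairs (52%) and S on L in 6 (24%), against 40.5% and 33.3% of all pairs, and this lean was not tested. The median size of the change was 0.67 on the log2 scale for the members and 0.57 for all pairs.

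sdhb had the largest change, -2.68 ± 0.17 (SE, log2 ratio of L to S, adjusted p = 1.2e-11). The S copy took 72.1% of the counts of the pair at t = 0 h and 94.5% at t = 4.5 h, and the pair together went from 32.1 to 81.1 CPM. In the 4 pairs that followed, L gained on S: by 1.54 ± 0.25 for atp5d, 1.24 ± 0.20 for sdhd, 1.23 ± 0.14 for ndufb9 and 1.02 ± 0.20 for cox6b1. The ways differed, since in atp5d and sdhd it was S that fell, in cox6b1 it was L that rose, and in ndufb9 L rose by 0.82 while S fell by 0.43.

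In 3 pairs, sdhb, ndufb9 and uqcrb, both copies were called and in opposite directions, and in 9 pairs both were called in the same direction. The shares of all pairs with such calls are not given here, so these counts stand without a background. The call of uqcrb.S did not hold without clutch A, B, E or F. For ndufb9 and uqcrb the opposite changes left the sum of the pair almost where it was, at 22.4 and 23.1 CPM for ndufb9 and at 13.7 CPM at both times for uqcrb. In atp5b L fell while S did not pass the test, and S went from 52.4% to 67.6% of the pair's counts. The model of atp5b.S overlaps others in RefSeq, and atp5b.L was not found there, so its overlap was not checked. How reads that match both copies were counted is not given in the sources used here.

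**Figure D3:**
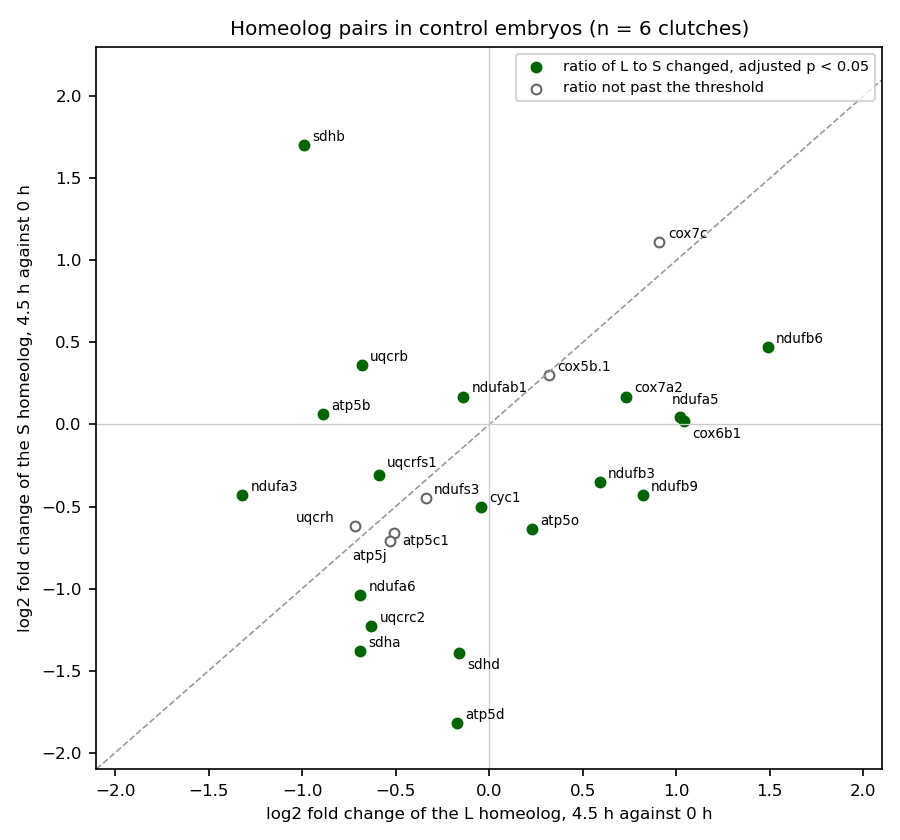
Log2 fold change between t = 0 and t = 4.5 h in control embryos of the L copy (x axis) and the S copy (y axis) of the 25 member pairs. The dashed line marks equal change. Filled points are the 19 pairs whose L to S ratio changed at an adjusted p under 0.05, and sdhb stands alone at the upper left, with S up by 1.70 and L at -0.99.

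Clutches also differed in the level of single members. After the mean of each group and time point was taken off, the clutch means of a member spanned a median range of 0.78 on the log2 scale, against 0.84 for all genes that passed the filter over the 96 libraries. The range reached 1 or more for 23 members (25.3%) and for 39.1% of all genes. It was widest for uqcrb.L (2.44, a 5.42-fold range), ndufa8.L (2.09) and cox6a1.S (1.60). These 3 are named because of their spread, seen in the data.

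uqcrb.L was at 9.02 CPM in clutch C, 8.88 in clutch E and 7.76 in clutch D in the controls at t = 0 h, but at 1.64 in clutch A, 2.55 in clutch B and 3.94 in clutch F. Its homeolog uqcrb.S was at 10.2 CPM in clutch A, 13.4 in clutch B, 6.88 in clutch C, 7.31 in clutch D, 4.81 in clutch E and 5.48 in clutch F. The S copy was thus highest in the 2 clutches where L was lowest, but in clutch F both copies were low. The clutch means of the L copy lay from -1.20 in clutch A to 1.24 in clutch C, and those of the S copy from -0.65 in clutch E to 0.74 in clutch B. For ndufa8.L clutches A, B and C lay below the mean and D, E and F above it. With 6 clutches such an arrangement is a description, and the part of sequence differences between females in it was not tested.

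The third set of comparisons asks whether a change of RA signalling reached these genes. With RA no member was called at t = 0, 1.5, 3 or 4.5 h by edgeR, against 0.537%, 0.655%, 0.16% and 0% of all genes, and the unadjusted p was under 0.05 for 11, 8, 4 and 2 members (12.1%, 8.79%, 4.4% and 2.22%, against 19.5%, 11.7%, 6.81% and 7.38% of all genes). DESeq2 called 2 members at t = 0 h and none later, and its shares of all genes are not given here. All but 3 to 5 members at each time had an RA effect of under 0.3 in size on the log2 scale, and the extremes over the 4 times were -0.51 for ndufb1.S at 1.5 h and 0.56 for cox5b.2.L at 4.5 h. The median standard error of a member rose from 0.084 at t = 0 h to 0.12 at t = 4.5 h. Smaller effects than these errors resolve were not detectable with 6 clutches. ndufs6.L was too low to be tested at t = 4.5 h.

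With DEAB 1 member was called, atp5l.L at t = 0 h (1.1% of members, against 2.37% of all genes). atp5l.L encodes subunit g of the membrane part of ATP synthase. It had 21.3 to 40.6 CPM in the controls (median 25.8) and 15.6 to 31.2 CPM with DEAB (median 23.5), ranges that overlap, and was lower in all 6 clutches, by 0.24 ± 0.062 (SE, log2 scale, adjusted p = 0.048). The call was lost without clutch A, B, D, E or F, and the count of called members went from 0 to 9 as clutches were left out, with 9 without clutch C and 2 without clutch B. The shares of all genes called in these subsets are not given here. At an unadjusted p under 0.05 were 21 members at t = 0 h (23.1%, against 22.3% of all genes). At 1.5, 3 and 4.5 h edgeR called no member, against 0%, 0.0361% and 0.263% of all genes, and DESeq2 called none. The unadjusted p was then under 0.05 for 5, 9 and 2 members (5.49%, 9.89% and 2.22%, against 7.75%, 9.87% and 10.5% of all genes).

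RA and DEAB were also set against each other. No member was called at any of the 4 times by edgeR or DESeq2, and the unadjusted p was under 0.05 for 5, 3, 1 and 3 members (5.49%, 3.3%, 1.1% and 3.33%, against 5.04%, 7.4%, 7.29% and 7.79% of all genes). Of all genes 0.464%, 1.04%, 0.969% and 0.815% were called.

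**Figure D4:**
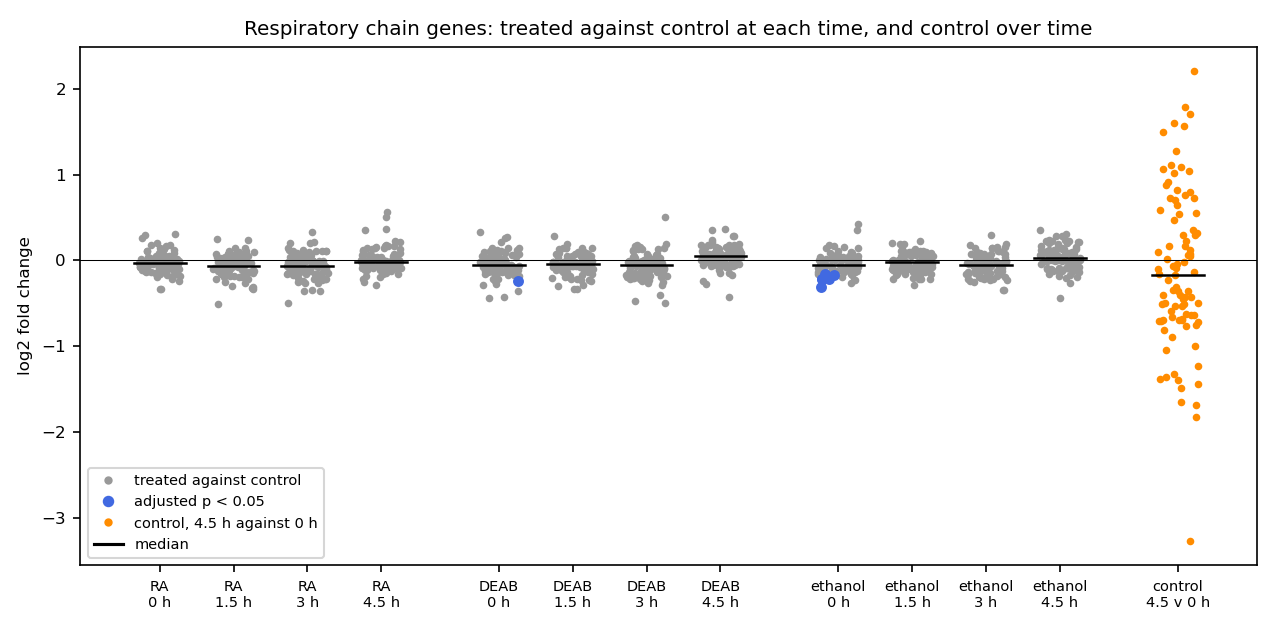
Log2 fold change (y axis) of every member tested for RA, DEAB and ethanol against control at each time after the wash, with control embryos at 4.5 h against 0 h at the right. Black bars are medians and blue points have an adjusted p under 0.05. Treated groups stay between -0.51 and 0.56, while the change over time spans -3.27 to 2.21.

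With 0.5% ethanol members were called at t = 0 h. In this fit of 12 libraries, against 18 for RA and DEAB, 6 of 91 were lower and none higher (6.59%, against 2.89% of all genes called, 1.7% lower), and all 6 were lower in each of the 6 clutches. At an unadjusted p under 0.05 the members (24.2%) were close to all genes (22.3%). The 6 spread over the chain: atp5l.L and atp5b.S of ATP synthase, both Rieske copies of complex III, the core subunit ndufs1.L of complex I, and cytochrome c. Apart from atp5l.L they are among the most counted members, with means of 64.2 to 273 CPM over all libraries. Less counted members with estimates as large or larger, such as cox7c.S (-0.26 ± 0.097, SE) and ndufs6.L (0.42 ± 0.16), were not called. The part of count depth in which members were called was not tested.

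The changes were small. atp5l.L had 16.1 to 32.6 CPM with ethanol (median 21.7), below the control median of 25.8, and a log2 fold change of -0.31 ± 0.05 (SE, adjusted p = 0.029). uqcrfs1.L had 109 to 153 CPM in the controls (median 138) and 95.1 to 139 CPM with ethanol (median 119), a change of -0.22 ± 0.043 (adjusted p = 0.032). For all 6 genes the ranges of control and ethanol libraries overlapped, and the difference appears only within clutches.

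uqcrfs1.S had 98.1 to 133 CPM in the controls (median 113) and 76.4 to 120 CPM with ethanol (median 100), and changed by -0.21 ± 0.045 (adjusted p = 0.04). ndufs1.L, with 48.8 to 90.8 CPM in the controls (median 61.6) and 44.0 to 73.0 CPM with ethanol (median 54.2), changed by -0.21 ± 0.046 (adjusted p = 0.039). cycs.S changed by -0.17 ± 0.04 (adjusted p = 0.046) and atp5b.S by -0.16 ± 0.036 (adjusted p = 0.04). None of the 6 calls held without clutch A, D, E or F or without clutch as a block, when no member was called at all. Without clutch B 7 members were called, and without clutch C 5, fewer than the 9 with DEAB without the same clutch, again without the shares of all genes. The counts of the treatments therefore give no order between them.

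The RA, DEAB and ethanol comparisons at t = 0 h share the same 6 control libraries, so their values are not independent of each other. For atp5l.L the log2 fold changes were -0.22 with RA (adjusted p = 0.092), -0.24 with DEAB and -0.31 with ethanol. For ndufs1.L they were -0.14 with RA (adjusted p = 0.11), -0.16 with DEAB (adjusted p = 0.063) and -0.21 with ethanol. With RA and DEAB in turn, uqcrfs1.L was at -0.13 and -0.11 (adjusted p = 0.071 for both by edgeR). uqcrfs1.S was at -0.15 and -0.07 (adjusted p = 0.07 and 0.25). cycs.S was at -0.08 and -0.11 (adjusted p = 0.27 and 0.11), and atp5b.S at -0.07 and -0.12 (adjusted p = 0.32 and 0.087). Over all members the median at t = 0 h was -0.03 with RA, -0.053 with DEAB and -0.055 with ethanol, with 61, 59 and 61 of 91 members below 0. With the ethanol libraries in place of the controls, a reference chosen after the data were seen, DEAB gave no called member and atp5l.L was at 0.06 (adjusted p = 0.63).

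**Figure D5:**
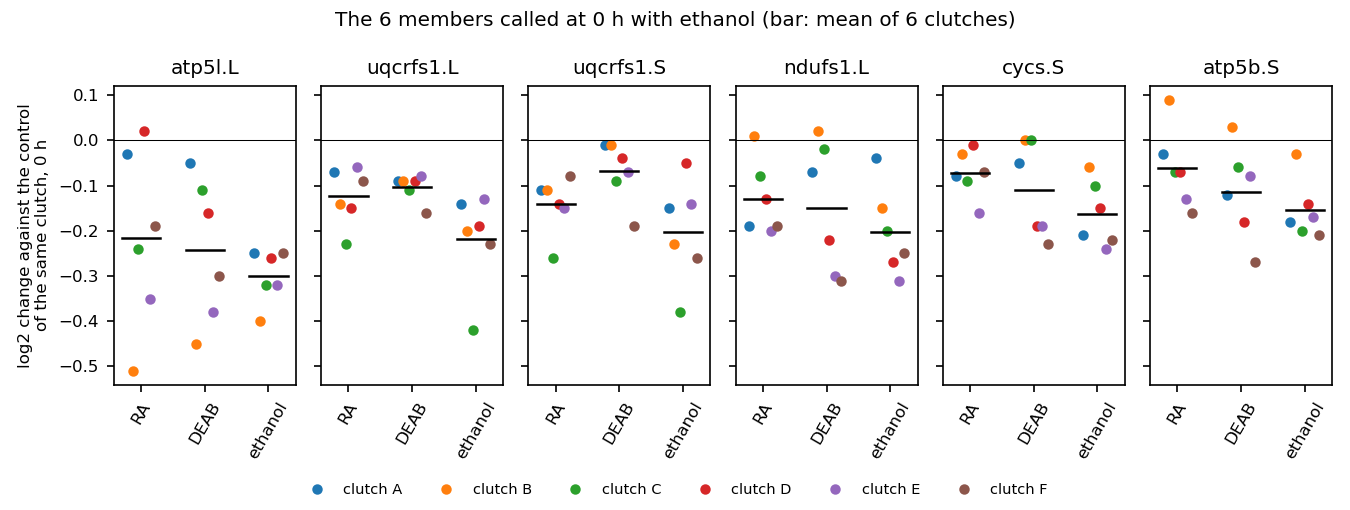
Log2 change at t = 0 h of the 6 members called with ethanol (y axis), as treated minus control within each clutch, for RA, DEAB and ethanol. Points are clutches and bars are means over 6 clutches, and the 3 comparisons use the same control libraries. With ethanol all points lie below 0, and for atp5l.L they run from -0.40 to -0.25.

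After the wash edgeR called no member with ethanol at 1.5, 3 or 4.5 h, and neither did DESeq2. The unadjusted p was under 0.05 for 4, 7 and 4 members (4.4%, 7.69% and 4.44%, against 9.2%, 4.83% and 6.41% of all genes), and 0.065%, 0% and 0.00531% of all genes were called. atp5l.L was at -0.03 ± 0.081 at 1.5 h, -0.18 ± 0.088 at 3 h (unadjusted p = 0.057, adjusted p = 0.97) and 0.03 ± 0.093 at 4.5 h. uqcrfs1.L was at -0.08 ± 0.052, -0.16 ± 0.062 and -0.17 ± 0.073 at the 3 later times, with unadjusted p of 0.12, 0.025 and 0.038 and adjusted p of 0.68 to 0.97.

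The change over time was then set side by side in the 4 groups, each fitted on its own 24 libraries. Between t = 0 and t = 4.5 h RA embryos had 26 members higher and 41 lower (73.6% called), against 82.9% of all genes, 39.9% higher and 43% lower. DEAB embryos had 33 higher and 42 lower (82.4%), against 83.5% of all genes, 40.3% higher and 43.3% lower. Ethanol embryos had 34 higher and 38 lower (79.1%), against 83.4% of all genes, 40.2% higher and 43.2% lower. In all 4 groups 25 members were called higher (27.5%) and 36 lower (39.6%), and 10 were called in none (11%). Of the 19834 genes tested in all 4 groups these shares were 36.3%, 39.8% and 9.25%. No member was called in opposite directions in any 2 groups, as were only 0.0252% of all genes, so this holds for nearly all genes and is not particular to the members. sdhb.S rose by 1.70 in control, 1.65 with RA, 1.85 with DEAB and 1.79 with ethanol (log2 scale), and cox5b.2.L changed by -3.27, -2.92, -3.18 and -3.08.

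An interaction of treatment and time tested whether the course differed between groups. edgeR called no member over control, RA and DEAB (0.00453% of all genes called) and none for ethanol against control (0% of all genes). At an unadjusted p under 0.05 were 1 member (1.1%, against 1.22% of all genes) and 3 members (3.3%, against 2.14%). DESeq2 called no member in either.

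Genes that serve the chain without matching the symbol rule were counted from lists of the same process. Over all genes, 39.6% rose and 43.2% fell in control embryos between t = 0 and t = 4.5 h, and each list is given beside these shares. In the citric acid cycle 3 of 17 genes rose (17.6%) and 14 fell (82.4%), with a median of -0.83, against -0.078 over all genes. idh3b.S rose by 1.01 ± 0.11 and cs.L, citrate synthase, which condenses acetyl-CoA with oxaloacetate, by 0.52 ± 0.05.

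Electron entry to ubiquinone by routes other than complexes I and II fell in 5 of 6 genes (83.3%, against 43.2% of all genes), with prodh.L, proline dehydrogenase, at -2.46 and gpd2.L, mitochondrial glycerol-3-phosphate dehydrogenase, at -1.80, while sqrdl.S rose by 0.64. Ubiquinone synthesis had 1 gene of 12 that rose (8.33%, against 39.6% of all genes), pdss1.L (0.53), and 8 that fell (66.7%, against 43.2%), with coq6.S at -2.52 and coq6.L at -1.32. These lists and the members were tested in the same fit.

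Assembly genes outside the rule were counted by complex. With at most 15 genes in a list, single genes move these shares, which are set against the 43.2% of all genes that fell and the 39.6% that rose. For complex IV 9 of 15 fell (60%) and 5 rose (33.3%), with coa7.S at -1.50 and taco1.S at -1.49, and with cox17.L, a copper chaperone, at 0.99 and lrpprc.L at 0.81. For complex III 3 of 5 fell (60%), with bcs1l.L, which inserts the Rieske protein, at -1.88 and uqcc3.L at -0.96, and uqcc1.L (0.68) and uqcc1.S (0.44) rose. For complex I 3 of 4 fell (75%), with ecsit.S at -2.06 and nubpl.L at -0.59, and timmdc1.L rose by 0.63. For ATP synthase 3 of 4 fell (75%), among them the inhibitor atpif1.L (-1.21) and the assembly factor atpaf2.S (-1.05).

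Of the regulators of mitochondrial gene expression and biogenesis 4 of 22 rose (18.2%, against 39.6% of all genes) and 11 fell (50%, near the 43.2% of all genes). mterf2.L (-2.74) and the coactivator ppargc1a.L (-2.71) fell most, and esrra.L, a nuclear receptor that works with ppargc1a in mammals, rose by 3.15 ± 0.27 from 0.478 ± 0.187 to 4.35 ± 0.942 CPM. gabpa.S, a subunit of a factor that binds promoters of cytochrome oxidase genes in mammals, rose by 0.32, and yy1.L had the same value. Mitochondrial ribosomal proteins fell in 47 of 65 genes (72.3%, against 43.2% of all genes) and rose in 13 (20%, against 39.6%), with mrps11.L at -2.61, mrpl1.L at -1.85, mrpl14.L at 1.32 and mrpl10.S at 1.32. In the transport list 2 of 5 rose (40%) and 2 fell (40%), near the shares of all genes. Those that rose were slc25a5.L, an ADP/ATP carrier (0.79), and slc25a3.S, the phosphate carrier (0.13), while vdac2.L (-0.92) and vdac1.S (-0.45) fell.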

How the data were processed

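The authors aligned reads of 96 HiSeq libraries to the X. laevis genome with STAR and deposited counts per gene made with verse, not normalized. The second deposited table holds log2 values of 72 libraries, without ethanol, for which the authors applied DESeq2's rlog, then ComBat and quantile normalization after removing low genes. It served only as an alternative. Gene names were taken from it. Of the members, 73 were found by symbol and 14 by synonym in RefSeq v10.1. The other 4 were not found and not checked for overlap, and 14 overlap another gene model in that assembly. Not all of these are marked where they are named. That assembly differs from the one the reads were aligned to, so no coordinates are given, and no sequences of these genes were used here.

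Counts were tested with edgeR 4.0.16 (R 4.3.3): TMM, filterByExpr, quasi-likelihood fit, clutch as a block, Benjamini-Hochberg adjustment at 0.05 over all genes. Time was fitted within each group (24 libraries), RA and DEAB per time point (18 libraries), ethanol per time point (12 libraries), and the interactions over 72 and 48 libraries. The standard error was the absolute log2 fold change divided by the root of the F statistic. Homeolog ratios were tested with limma 3.58.1 on log2 CPM with a prior count of 2. The block rests on the labels and methods, which give each clutch as 1 female, and libraries of a clutch deviated together from their group means in all 144 pairs across groups (correlations 0.581 to 0.888). None of 240 pairs of replicate libraries was identical. Embryos were pooled in each library and clutch was a block. The p-values therefore rest on how far changes within clutches varied from clutch to clutch, not on differences in level between clutches. Count depths limit the precision of low genes.

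Alternatives were DESeq2 1.42.0, its size factors, no count filter, no block, limma on the deposited log2 values, a wider fit, leaving out each clutch, and only clutches A, D, E and F. Named genes are, per complex, the 2 largest rises and falls called, members called in treated comparisons, the 5 homeolog pairs with the largest called change, the 3 most and least counted members, complex IV, ATP synthase and cytochrome c isoforms, and up to 2 genes per list and direction. Other members are named to complete a complex. The members, lists and tests were chosen with earlier results of these data known. The procedures were tested on simulated data in which few genes changed and clutches did not differ. Such data cannot show how the scaling or the clutch block behaves when most genes change and clutches differ, as here. The results of some genes are not reported by name here, though counts over genes include them.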

Additional observations from a re-analysis of the deposited data

Results flagged for a closer look

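In 3 of 47 sets of within-clutch changes a single clutch stood apart from the other 5 (its gap to the nearest value, over the range, passed Dixon's 95% critical value), and chance flags about 1 in 20. For uqcrfs1.L the ethanol effect at t = 0 h was -0.42 in clutch C and -0.23 to -0.13 in the others. For uqcrfs1.L the change between t = 0 and t = 4.5 h in control embryos was -0.11 in clutch B and -0.83 to -0.59 in the others. For cox6a1.S the same change was -0.19 in clutch B and -0.70 to -0.52 in the others. Clutch B was at st. 12 at t = 4.5 h, as was clutch C, which did not stand apart in the changes over time. The part of stage in these values was not tested.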

How the results depend on the processing

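Without the replicate block the members called in control embryos numbered 3 at 1.5 against 0 h, 36 at 3 against 0 h, 2 at 3 against 1.5 h and 1 at 4.5 against 3 h, and none was called with DEAB or ethanol at 0 h, whereas 13 homeolog pairs were still called. With clutches A, D, E and F alone, 18 members were called at 4.5 against 3 h, 10 with DEAB, 11 with ethanol and 2 with RA at 0 h. At 0 h DESeq2 called 3 members with DEAB and 2 with RA, and without the count filter 3 and 1 were called. For DEAB at 0 h the deposited log2 values, the wider fit and the ethanol reference, added after the data were seen, called 0, and the wider fit for ethanol called 10. Leaving out single clutches gave 20 to 29 members at 1.5 against 0 h, 18 to 31 at 4.5 against 3 h, 0 to 9 with DEAB and 0 to 7 with ethanol at 0 h. For counts under alternatives, here and in the Results, the shares of all genes called are not given. Such counts show only how the calls depend on the processing, and they are no result about the members. Of 606 values of 47 named results under alternatives, 540 kept their direction and side of the threshold, 58 lost and 4 gained the call, and 4 reversed: atp5l.L with DEAB at 0.06 against ethanol, and on the deposited log2 values atp5b.S (-0.14), ndufb3.L (-0.02) and ndufa4.S (0.13) over time. The cause was not tested. DESeq2's size factors moved the median of all genes over time from -0.078 to -0.0029. Depth limits members with few counts, the least counted complex I genes among them.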
